A study of Mus musculus with 9 samples.

Results

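Monocarboxylate transporters of the SLC16 family carry lactate, pyruvate, ketone bodies and related small molecules across the plasma membrane, and they were followed here as 6 genes in clones of a murine leukemia model: *Slc16a1*, *Slc16a3*, *Slc16a6*, *Slc16a7*, *Slc16a10* and *Bsg*. These are 6 of the 55401 genes in the deposited tables, of which 42643 had a read. The members were chosen by gene name, with the differences between groups in the same normalized counts already known, so those differences are given as a description, with no p-value for any member.

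The proteins of *Slc16a1* (MCT1), *Slc16a3* (MCT4) and *Slc16a7* (MCT2) move a proton with each monocarboxylate, so that their direction follows the gradients of lactate and protons. MCT4 is known for lactate export from glycolytic cells, MCT1 for transport in either direction in many tissues including blood cells, and MCT2 for uptake at low substrate concentrations. Basigin (CD147, encoded by *Bsg*) is the chaperone that brings MCT1 and MCT4 to the cell surface, whereas the products of *Slc16a6* and *Slc16a10* need no proton, and that of *Slc16a10* (TAT1) carries aromatic amino acids.

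RNA-Seq was performed on 9 libraries, 3 per group, of H9M cells, which are lineage-negative bone marrow cells of C57BL/6-Ly5.1 mice transduced with a gammaretroviral vector for *Hoxa9*, *Meis1* and puromycin resistance. In all groups each clone carried a lentiviral FGB-D vector that marks it with a color code. Color-coded clones were pooled with helper bone marrow and transplanted into lethally irradiated C57Bl6/J mice, and splenocytes of single codes were sorted as CD45.1+, EGFRt bright, cKit+ and CD11b dim or negative. Pre-malignant samples were 3 minor clones of mouse #15 (33BC-D, 38BC-D, 43BC-D), which was killed early after transplantation. De novo expanded samples were these clones at the leukemic endpoint, where 38BC-D was taken from mouse #13, 43BC-D from mouse #14 and 33BC-D from mouse #17. Stably expanded samples were a single clone, 34BC-D, sorted from each of the 3 endpoint mice. Animal age is not given in the sources used here. Differences from the pre-malignant group therefore cannot be told apart from those between mouse #15 and the endpoint mice, nor those of the stably expanded group from those between clone 34BC-D and the other clones. Columns of the tables could be linked to a group but not to a clone or mouse, and libraries were numbered 1 to 3 within a group as names only.

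Reads on genes ranged from 10379739 to 15551196 per library, with a median of 14606389. Mean Spearman correlation with the other libraries of the group was 0.943 for de novo expanded library 3 and ranged from 0.961 to 0.983 for the other 8 libraries. *Kit* (142 to 287 CPM, reads scaled to 1000000 reads on genes), *Ptprc* (310 to 385 CPM), *Itgam* (27.8 to 85.7 CPM), *Hoxa9* (315 to 687 CPM) and *Meis1* (535 to 1100 CPM) were present in all libraries, the genes of the sort and of the vector. Erythroid markers summed to 24.6 to 55.8 CPM in pre-malignant, 3.33 to 20.3 CPM in de novo expanded and 4.82 to 32.5 CPM in stably expanded libraries, and macrophage markers to 87.6 to 186, 53.7 to 242 and 171 to 229 CPM, respectively. *Adgre1* (52.2 to 99.0 CPM) and *Vcam1* (1.17 to 167 CPM) supplied most of the macrophage sum. The macrophage markers *C1qa*, *C1qb*, *C1qc* and *Cd5l* stayed at or below 0.986 CPM and *Spic* at or below 2.05 CPM in every library. T cell and platelet marker sums stayed at or below 2.26 and 3.04 CPM, with *Ppbp* and *Gp1bb* at 0 in every library, and B cell markers are given beside *Slc16a7*. The part of other cell types in the member levels was not tested. Since these are bulk samples, a lower value may mean fewer cells with the transcript or less of it per cell, which cannot be told apart.

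The transporters span a range of levels, and *Bsg* exceeded all of them. Per exon length, as CPM per kilobase of exon (RPKM), *Bsg* averaged 106 over the 9 libraries, above 99.4% of genes with a read. *Slc16a6* averaged 11.7, *Slc16a1* 10.9, *Slc16a10* 7.29 and *Slc16a3* 5.02 RPKM, which placed them above 83.0 to 90.7% of genes with a read. *Slc16a7* averaged 0.239 RPKM, above 58.7% of these genes. The order among the middle members differed between groups. In pre-malignant libraries *Slc16a6* (12.1 to 14.3 RPKM) lay above *Slc16a1* (7.68 to 8.54 RPKM) without overlap, whereas in de novo expanded libraries *Slc16a1* (11.5 to 15.9 RPKM) and *Slc16a6* (9.76 to 14.7 RPKM) overlapped. In stably expanded libraries *Slc16a1* (9.10 to 12.9 RPKM) and *Slc16a6* (7.87 to 10.3 RPKM) overlapped as well. *Slc16a3* (2.69 to 2.93 RPKM) lay below *Slc16a10* (6.76 to 7.46 RPKM) in pre-malignant libraries, while in stably expanded libraries *Slc16a3* (4.38 to 7.84 RPKM) and *Slc16a10* (5.93 to 7.63 RPKM) overlapped.

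*Slc16a1* (ENSMUSG00000032902.1) is annotated at chr3:104638668-104658462 on the plus strand of GRCm38.p6 with 4426 exon bases, none of them shared with another gene, and *Slc16a3* (ENSMUSG00000025161.16) at chr11:120948480-120960868 on the plus strand with 5318 exon bases. Promoters were examined because *Slc16a1* and *Slc16a3* were both higher in leukemic groups, with *Slc16a10*, whose groups overlapped, beside them. RefSeq sequences of GRCm38.p6 were at hand for 3 of the 6 members. The bases upstream of the RefSeq start that lie in no deposited exon of the gene are shown 5′ to 3′. Capitals mark ACGTG on either strand, a form of the core of hypoxia response elements, and other forms of this core were not searched. The windows are chr3:104638414-104638663 on the plus strand (250 bases), chr11:120948817-120949052 on the plus strand (236 bases, inside the annotated span of *Slc16a3*) and chr10:40142259-40142504 on the minus strand (246 bases).
Slc16a1: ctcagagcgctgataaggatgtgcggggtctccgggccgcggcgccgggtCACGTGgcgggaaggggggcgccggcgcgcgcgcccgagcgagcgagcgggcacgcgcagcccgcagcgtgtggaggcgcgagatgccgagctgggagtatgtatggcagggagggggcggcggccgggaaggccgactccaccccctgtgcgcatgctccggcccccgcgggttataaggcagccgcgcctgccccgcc
Slc16a3: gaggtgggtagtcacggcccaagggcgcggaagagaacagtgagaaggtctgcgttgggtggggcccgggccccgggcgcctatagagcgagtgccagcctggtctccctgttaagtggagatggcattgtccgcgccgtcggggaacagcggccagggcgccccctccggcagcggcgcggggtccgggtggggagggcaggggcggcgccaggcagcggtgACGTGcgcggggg
Slc16a10: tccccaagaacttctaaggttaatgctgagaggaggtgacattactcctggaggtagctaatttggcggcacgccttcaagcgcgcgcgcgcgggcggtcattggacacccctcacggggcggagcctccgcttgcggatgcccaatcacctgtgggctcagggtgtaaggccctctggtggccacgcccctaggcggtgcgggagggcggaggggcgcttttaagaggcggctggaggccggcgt

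GC content was 76.4% for *Slc16a1*, 73.3% for *Slc16a3* and 65.0% for *Slc16a10*, against medians of 52.0 to 52.4% over 32851 RefSeq promoters in windows of the same lengths. The *Slc16a1* window held 1 palindromic E-box (CACGTG), the site of MYC-type factors, and this match contains both of its ACGTG matches, 1 per strand. The E-box occurred in 6.02% of promoters of that length, and ACGTG on either strand in 16.6%. The *Slc16a3* window held 1 ACGTG near its end, found in 15.6% of promoters of that length, and no E-box. The *Slc16a10* window held neither ACGTG nor the E-box, with ACGTG in 16.3% and the E-box in 5.89% of promoters of that length. The GC box (GGGCGG) was found on either strand 1 time in *Slc16a1*, 1 time in *Slc16a3* and 3 times in *Slc16a10*, and occurred in 32.7, 30.8 and 32.2% of promoters of these lengths. The TATA box (TATAAA, either strand) was in none of the 3 windows, and in 11.9 to 12.4% of promoters. A match of letters is a description of the window and does not show binding.

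*Slc16a1*, the carrier for lactate import and export, was higher in both leukemic groups than in the pre-malignant group. Its level was 36.6, 37.8 and 34.0 CPM in the 3 pre-malignant libraries, 54.1, 50.7 and 70.3 CPM in those of de novo expanded clones and 57.0, 53.6 and 40.3 CPM in the stably expanded libraries. Every leukemic library lay above every pre-malignant one, while the leukemic groups overlapped. Means were 36.1 ± 1.95, 58.4 ± 10.5 and 50.3 ± 8.85 CPM (SD, n = 3 each). The spread was wider in the leukemic groups than in the pre-malignant group. The leukemic groups came from 3 mice each and the pre-malignant group from 1, and the part of this in the spread was not tested. On log2(normalized count + 1), the scale of all log2 differences given here, the de novo expanded group exceeded the pre-malignant group by 0.70 (SE 0.16) and the stably expanded group exceeded it by 0.47 (SE 0.14). Leaving out 1 library moved these values within 0.54 to 0.80 and within 0.36 to 0.61.

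*Slc16a3*, the lactate exporter, differed most from the pre-malignant group among the 5 well-covered members. It was measured at 15.6, 15.1 and 14.3 CPM in pre-malignant libraries, 34.6, 31.0 and 24.0 CPM in de novo expanded libraries and 41.7, 40.4 and 23.3 CPM in stably expanded libraries. No leukemic library reached down to the pre-malignant levels, and the leukemic groups again overlapped. The pre-malignant libraries, all from 1 mouse, varied little (15.0 ± 0.627 CPM, SD, n = 3). The de novo (29.9 ± 5.39 CPM) and stably expanded libraries (35.1 ± 10.3 CPM), from 3 mice each, varied more, and the part of the number of mice in this was not tested. Log2 differences were 0.99 (SE 0.17) for de novo expanded over pre-malignant, or 1.99-fold and thus just short of the 2-fold limit, and 1.18 (SE 0.21) for stably expanded over pre-malignant, or 2.27-fold. Without de novo expanded library 3 the first was 1.13, and without stably expanded library 3, which held its group's lowest level, the second was 1.44. The 3' region of *Slc16a3* shares 306 exon bases (5.75%) with *Csnk1d* on the opposite strand, and whether counting used strand is not given in the sources used here. *Csnk1d* lay between 95.8 and 108 CPM in the 9 libraries, with log2 differences of 0.03 in both comparisons with the pre-malignant group.

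**Figure D1:**
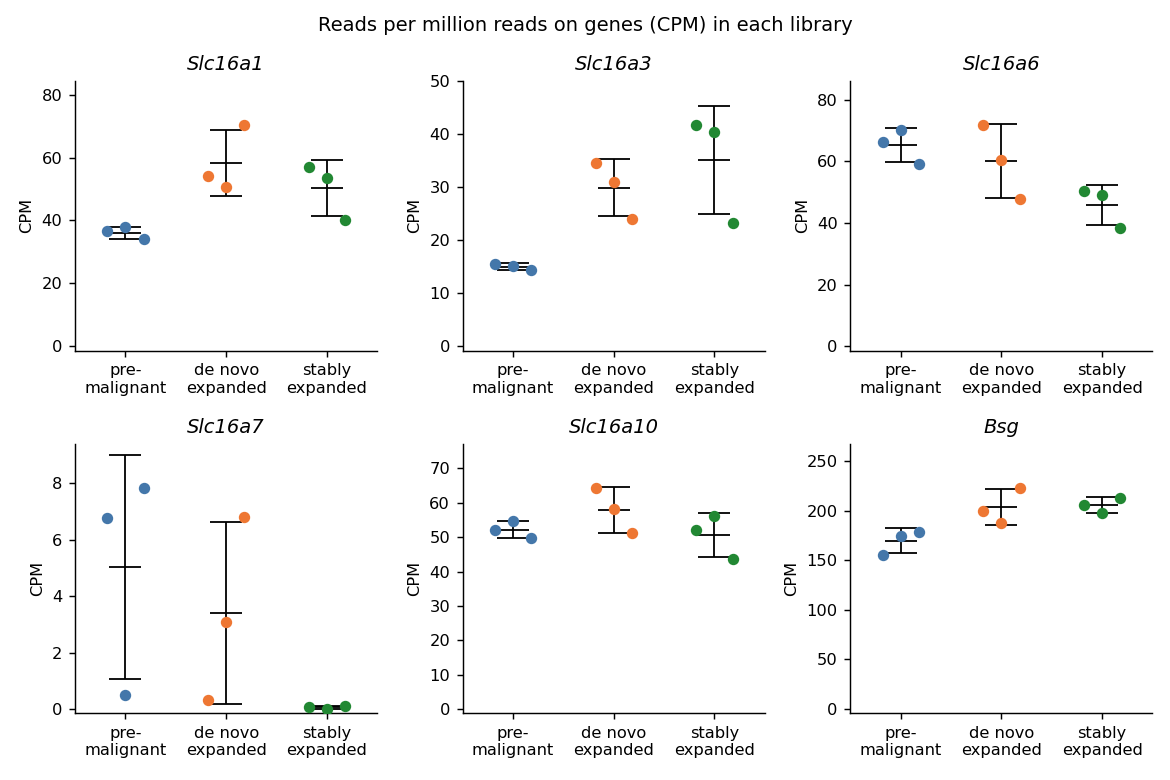
Level of the 6 members in each library, in CPM on a linear axis that includes 0 in each panel, by group (pre-malignant, de novo expanded, stably expanded). Points are libraries 1 to 3 from left to right, and lines give the mean ± SD; *Slc16a1*, *Slc16a3* and *Bsg* show all 6 leukemic libraries above the 3 pre-malignant ones, and *Slc16a7* shows low libraries in every group.

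*Slc16a7*, the carrier with the highest affinity for lactate and pyruvate, was nearly absent from clone 34BC-D. The gene (ENSMUSG00000020102.15, chr10:125219270-125389465, minus strand, 11839 exon bases) was read 89, 7 and 116 times in pre-malignant, 4, 48 and 104 times in de novo expanded and 1, 0 and 1 times in stably expanded libraries. The stably expanded libraries lay below all others, and the other groups overlapped over almost their whole range. Exact 95% Poisson intervals were 2.81 to 14.4 reads for the pre-malignant library with 7 reads against 71.5 to 110 for that with 89, and 1.09 to 10.2 reads for the de novo expanded library with 4 against 35.4 to 63.6 for that with 48. Each of these groups thus held 1 library with fewer than 8 reads, and which clones these were could not be read from the columns. The intervals of stably expanded libraries 1 and 3, 0.0253 to 5.57 reads each, overlapped those of the libraries with 7 and 4 reads. The 0 of stably expanded library 2 allows up to 3 reads, or 0.206 CPM, as a one-sided limit, while its two-sided interval reaches 3.69 reads, and intervals and limits of this kind cover counting error only.

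**Figure D2:**
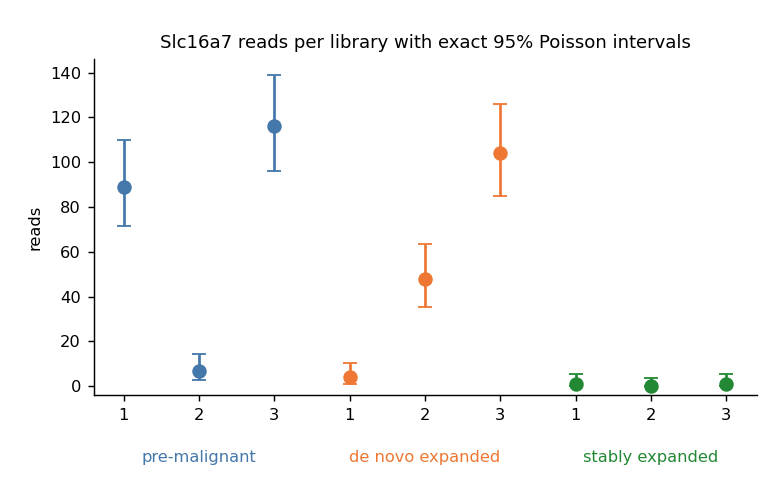
*Slc16a7* reads in each of the 9 libraries on a linear axis, with exact 95% Poisson intervals as bars and library numbers within each group below. The 3 stably expanded libraries hold 0 or 1 read, and the pre-malignant and de novo expanded groups each hold 1 library at 7 or 4 reads beside libraries between 48 and 116 reads.

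Summed over libraries and set against total reads, *Slc16a7* had 212 reads in pre-malignant and 2 in stably expanded libraries, a ratio of 100 with an exact 95% counting interval of 27.4 to 834. The ratio for the 156 reads of the de novo expanded libraries against the same 2 reads was 73.4 (20.0 to 611). Both intervals treat pooled reads as a single count and leave out the spread between libraries of a group, which here went beyond counting error. Leaving out 1 library of the larger group gave 69.6 to 148 and 38.1 to 99.2, respectively. The fitted log2 differences of the stably expanded group, -4.68 (SE 0.98) from pre-malignant and -4.09 (SE 1.07) from de novo expanded, depend on the pseudocount, and ranged from -3.13 to -6.64 and from -2.62 to -6.07 over the other settings. Between the 2 groups of 3 clones the difference was -0.57 (SE 1.31) for de novo expanded over pre-malignant, with values of -1.82 to 0.61 when 1 library was left out (0.61 without de novo expanded library 1, 0.005 and 0.105 without pre-malignant library 1 and 3, and -1.82 without pre-malignant library 2). The only gene that shares exon bases with *Slc16a7*, *Gm47862* on the opposite strand (179 bases), had at most 8 reads. All 6 annotated genes within 500 kb of *Slc16a7* had reads, but none was expressed highly enough to be tested, the highest count of any being these 8 reads.

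Markers of B cells, summed over *Cd79a*, *Cd79b*, *Ms4a1*, *Ighm* and *Ighd*, came to 227, 212 and 254 CPM in pre-malignant, 204, 158 and 72.8 CPM in de novo expanded and 84.9, 91.3 and 103 CPM in stably expanded libraries. The stably expanded libraries lay below the pre-malignant ones in this sum and overlapped the de novo expanded ones. *Ighm*, the immunoglobulin heavy chain, supplied most of it, with 195 to 240 CPM in pre-malignant and 68.0 to 83.0 CPM in stably expanded libraries. *Cd79b*, a subunit of the B cell receptor, ran the other way for the most part, with 6.91, 10.1 and 4.66 CPM in pre-malignant and 14.6, 9.73 and 17.8 CPM in stably expanded libraries. The part of B cells in the level of *Slc16a7* was not tested.

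*Bsg*, the chaperone of MCT1 and MCT4, was modestly higher in leukemic libraries. The gene (ENSMUSG00000023175.15, chr10:79704491-79711969, plus strand, 1814 exon bases shared with no other gene) was measured at 156, 175 and 179 CPM in pre-malignant, 200, 187 and 223 CPM in de novo expanded and 206, 198 and 213 CPM in stably expanded libraries. The 6 leukemic libraries lay above the 3 pre-malignant ones, and the leukemic groups overlapped. Log2 differences from the pre-malignant group were 0.28 (SE 0.11) for de novo expanded and 0.28 (SE 0.09) for stably expanded clones, or 1.21- and 1.22-fold. Between the leukemic groups the difference was 0.02 (SE 0.11), with a sign that depended on the setting.

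*Slc16a6*, whose product MCT7 is known for export of ketone bodies, was lower in the stably expanded clone. It was measured at 66.3, 70.0 and 59.2 CPM in pre-malignant, 71.7, 60.6 and 47.7 CPM in de novo expanded and 50.3, 48.9 and 38.4 CPM in stably expanded libraries. The stably expanded libraries lay below all pre-malignant libraries, and the de novo expanded group overlapped both. Its log2 differences were -0.51 (SE 0.13) for stably expanded over pre-malignant and -0.12 (SE 0.16) for de novo expanded over pre-malignant. *Slc16a6* (ENSMUSG00000041920.14, chr11:109450855-109473598, minus strand, 4883 exon bases) shares 1149 exon bases (23.5%) with *Arsg*, *Amz2* and *Gm25540*. *Arsg*, a lysosomal sulfatase gene on the opposite strand, was also lower in stably expanded (5.61, 10.3 and 2.12 CPM) than in pre-malignant libraries (21.0, 24.7 and 22.3 CPM). The log2 difference of *Arsg* was -2.16 (SE 0.43, limma adjusted p = 0.0154), and its part in the *Slc16a6* count was not tested.

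*Slc16a10*, the aromatic amino acid carrier, did not separate the groups. It was measured at 52.1, 54.8 and 49.7 CPM in pre-malignant, 64.3, 58.3 and 51.1 CPM in de novo expanded and 52.2, 56.1 and 43.6 CPM in stably expanded libraries. All 3 groups overlapped, with log2 differences of 0.16 (SE 0.12), -0.05 (SE 0.12) and -0.19 (SE 0.14) in de novo expanded over pre-malignant, stably expanded over pre-malignant and stably expanded over de novo expanded libraries. The gene (ENSMUSG00000019838.11, chr10:40033532-40142258, minus strand, 7356 exon bases) shares no exon base with another gene and varied least among the 5 transporters, with its highest library 1.47 times its lowest.

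**Figure D3:**
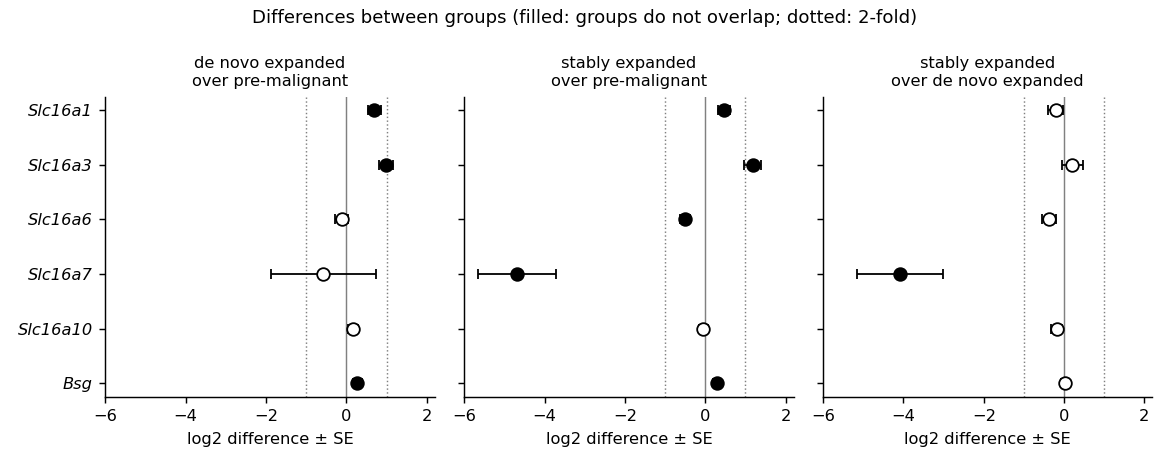
Log2 differences between group means of log2(normalized count + 1) for the 6 members in the 3 comparisons, with standard errors as bars and 3 libraries per group. Filled points mark groups that do not overlap: 3 members in the first comparison, 5 in the second and *Slc16a7* alone in the third; dotted lines mark 2-fold, and the leftmost points are the -4.68 and -4.09 of *Slc16a7*.

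All 6 members passed the filter on low values (a mean normalized count of at least 10) in the 3 comparisons, *Slc16a7* doing so against the stably expanded group only through the other group, and calls required 2-fold and an adjusted p under 0.05 (limma, Benjamini-Hochberg over all tested genes). For de novo expanded against pre-malignant libraries 0 of 6 members were called, beside 0% of all 14195 tested genes. Of these genes 1597 (11.3%) had an unadjusted p under 0.05, edgeR called 0 and DESeq2 called 42, *Slc16a3* among them. In this comparison 3 members did not overlap, *Slc16a1*, *Slc16a3* and *Bsg*, all higher, where 19.1% of tested genes did not overlap and 10.6% were higher without overlap. Between stably expanded and pre-malignant libraries 2 of 6 members were called, *Slc16a3* higher and *Slc16a7* lower, beside 2.75% of all tested genes. In this comparison 5 members did not overlap, where 30.7% of tested genes did not. Leaving out pre-malignant library 1 or 3 ended the call of *Slc16a7*, and 1 fit of all 9 libraries ended both calls, with 9 genes called in all. Between the leukemic groups 0 of 6 members were called, beside 0.00727% of tested genes, of which 664 (4.83%) had an unadjusted p under 0.05. DESeq2 called 29 genes in this comparison, *Slc16a7* among them, and edgeR called 1, which was no member. The values of *Slc16a7* alone did not overlap, against 9.61% of tested genes. The members were chosen with these contrasts known and the comparisons share libraries, so nothing was read from these counts.

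Among the members, the makeup of the proton-coupled carriers per exon length differed between stably expanded and pre-malignant libraries. De novo expanded libraries overlapped the pre-malignant ones in the share of each carrier. The summed level of *Slc16a1*, *Slc16a3* and *Slc16a7* was 11.4 ± 0.365 RPKM in pre-malignant, 19.1 ± 1.73 RPKM in de novo expanded and 17.97 ± 3.91 RPKM in stably expanded libraries (SD, n = 3 each). Other SLC16 genes, such as *Slc16a13* with a mean of 4.12 RPKM over the libraries, are not in this sum. *Slc16a1* supplied most of the sum in every library, from 61.5 to 75.7%. The share of *Slc16a3* was 24.9, 24.9 and 24.4% in pre-malignant, 34.7, 33.2 and 21.6% in de novo expanded and 37.8, 38.5 and 32.5% in stably expanded libraries. The stably expanded libraries lay above the pre-malignant ones in this share, and de novo expanded library 3 lay below them. The ratio of *Slc16a3* to *Slc16a1* was 0.346 ± 0.0112, 0.442 ± 0.137 and 0.572 ± 0.0790. *Slc16a7* made up 0.354 to 6.0% of the sum in pre-malignant, 0.150 to 2.74% in de novo expanded and at most 0.0603% in stably expanded libraries. The level of *Bsg* was 7.30 to 8.95 times the sum in pre-malignant libraries and 5.87 to 5.89 times in de novo expanded libraries, whereas in the stably expanded group library 3 (8.72) stood above libraries 1 and 2 (5.48 and 5.53).

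**Figure D4:**
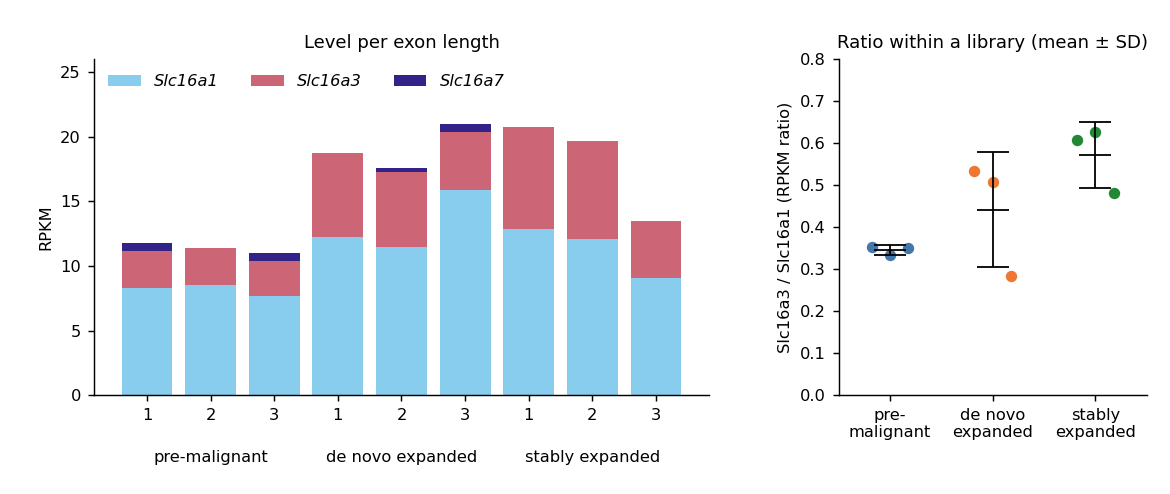
Left, stacked RPKM of *Slc16a1*, *Slc16a3* and *Slc16a7* in each library, numbered within its group; right, the ratio of *Slc16a3* to *Slc16a1* RPKM within each library with mean ± SD. Stacks reach 11.0 to 11.8 RPKM in pre-malignant libraries and 13.5 to 21.0 RPKM in the leukemic ones, and the ratio of de novo expanded library 3 (0.285) is the lowest of all.

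Further genes of monocarboxylate transport and use were taken from 9 lists of 74 genes, of which 52 were tested in each comparison. Between stably expanded and pre-malignant libraries *Slc7a8* was called higher and *Hcar2* lower, 2 of 52 beside 2.75% of all tested genes. In each of the other comparisons limma, edgeR and DESeq2 all called 0 of the 52. Between de novo expanded and pre-malignant libraries 10 had an unadjusted limma p under 0.05 (8 of them higher), where 11.3% of all tested genes had one. Between the leukemic groups 2 had such a p, where 4.83% of all tested genes had one. In stably expanded over pre-malignant libraries 18 had such a p (14 of them higher), where 25.4% of all tested genes had one. The median log2 difference over the 52 genes was 0.10 for de novo expanded and 0.13 for stably expanded over pre-malignant and 0.03 between the leukemic groups, with medians over all tested genes of 0.008, 0.004 and -0.002.

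*Slc7a8*, which encodes LAT2, an exchanger of large neutral amino acids, had normalized counts of 114, 128 and 130 in stably expanded against 42.7, 14.7 and 27.4 in pre-malignant libraries (log2 difference 2.22, SE 0.38, limma adjusted p = 0.00877). No other setting but the fit of all 9 libraries (adjusted p = 0.0768) took its adjusted p over 0.05. De novo expanded libraries had 18.8, 35.1 and 64.6 normalized counts of *Slc7a8* and overlapped the pre-malignant ones (log2 difference 0.38, SE 0.565). Stably expanded libraries lay above the de novo expanded ones without overlap (1.86, SE 0.43, limma adjusted p = 0.891). *Hcar2*, the receptor for the ketone body β-hydroxybutyrate, had 6.26, 29.1 and 14.6 normalized counts in stably expanded libraries against a mean of 79.1 ± 27.7 (SD, n = 3) in pre-malignant libraries (log2 difference -2.36, SE 0.52, limma adjusted p = 0.0238). Its call was lost in the fit of all 9 libraries and without pre-malignant library 2 or 3 or stably expanded library 1. The adjusted p of *Hcar2* reached 0.124 over the settings that tested it, and at a minimum mean normalized count of 50 it was not tested. In de novo expanded libraries it averaged 21.5 ± 13.6 normalized counts, with a log2 difference of -2.08 (SE 0.60) from pre-malignant and an adjusted p of 0.381.

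No gene of glycolysis or of lactate and pyruvate metabolism was called in any comparison. In the list of glucose uptake and glycolysis 12 of 14 genes were higher than in pre-malignant libraries in either leukemic group, with medians of 0.17 and 0.22, and in that of lactate and pyruvate enzymes, which holds enzymes that make pyruvate, turn it over or regulate its use, 8 of 11, with medians of 0.22 and 0.22, where 51% and 50.5% of all tested genes were higher. Between stably expanded and pre-malignant libraries an adjusted p under 0.05 at less than 2-fold was found for *Gpi1* (log2 difference 0.78, SE 0.11, adjusted p = 0.00536), *Pkm* (0.49, SE 0.10, adjusted p = 0.0158), *Ldha* (0.45, SE 0.11, adjusted p = 0.0368) and *Eno1* (0.65, SE 0.15, adjusted p = 0.0288), which encode glycolytic enzymes and, for *Ldha*, the enzyme that reduces pyruvate to lactate. With *Slc7a8*, *Hcar2* and *Slc43a2*, another neutral amino acid carrier (-0.49, SE 0.11, adjusted p = 0.0244), these were 7 of 52 genes, where 7.95% of all tested genes had such a p. *Eno1* and *Slc43a2* were chosen for naming with their values in view. The adjusted p of *Ldha* reached 0.14, that of *Eno1* 0.0972, that of *Pkm* 0.077 and that of *Slc43a2* 0.0931 over all settings, each passing 0.05 without pre-malignant library 1 or 2 and without stably expanded library 1, whereas that of *Gpi1* passed it only in the fit of all 9 libraries (0.14). In de novo expanded libraries *Ldha* (0.53, SE 0.13), *Pgk1* (0.57, SE 0.18) and *Pkm* (0.33, SE 0.10) had adjusted p-values of 0.36 to 0.384.

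**Figure D5:**
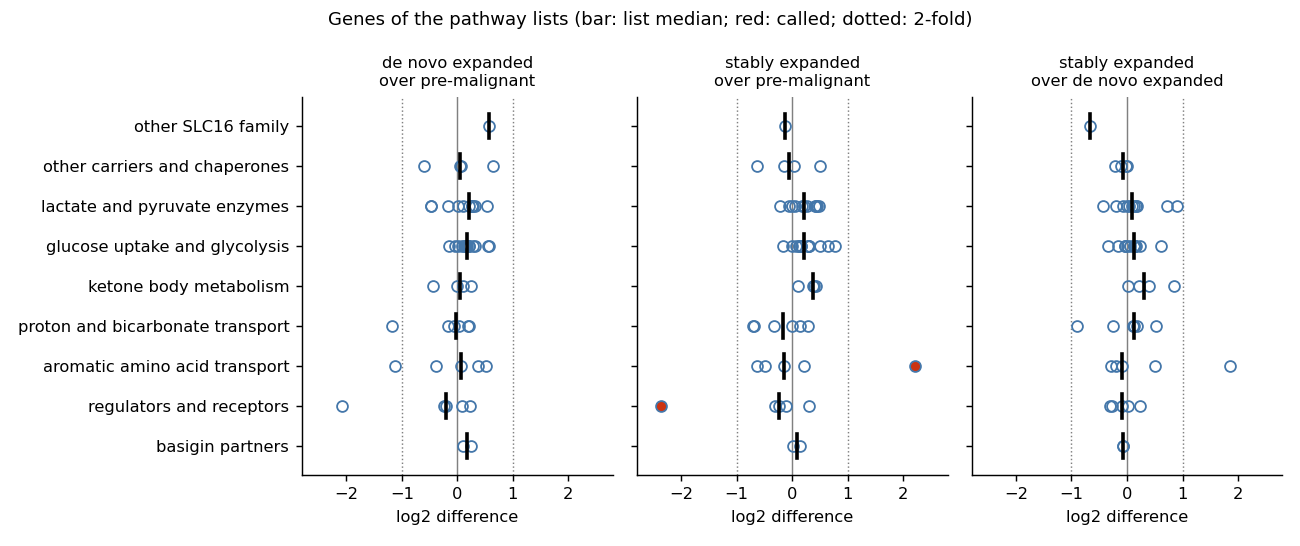
Log2 differences of the tested genes in the 9 lists, 1 open circle per gene, for the 3 comparisons, with a black bar at each list's median and dotted lines at 2-fold. Red marks the 2 called genes, *Slc7a8* at 2.22 and *Hcar2* at -2.36, both in stably expanded over pre-malignant libraries.

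Ketone body enzymes (4 of 6 tested) had medians of 0.05 and 0.38 in de novo and stably expanded over pre-malignant libraries, all 4 being higher in the latter. *Oxct1*, the enzyme that commits ketone bodies to oxidation, differed by 0.11 (SE 0.14) in the latter, *Acat1* by 0.43 (SE 0.13, limma adjusted p = 0.0738) and *Bdh1* by 0.39 (SE 0.60). Proton and bicarbonate carriers and carbonic anhydrases (6 of 7 tested) had medians of -0.02 and -0.17, with *Car2* at -1.18 (SE 0.61) and -0.68 (SE 0.42), *Car12* at 0.21 (SE 0.71) and -0.70 (SE 0.42) and *Slc4a7* at -0.06 (SE 0.37) and -0.33 (SE 0.16). Aromatic amino acid carriers (5 of 5 tested) had medians of 0.07 and -0.14, with *Slc43a1* at -1.13 (SE 1.03) and -0.64 (SE 0.43) and *Slc3a2*, the heavy chain that LAT2 needs, at 0.07 (SE 0.18) and -0.14 (SE 0.10). Regulators and receptors (5 of 8 tested) had medians of -0.21 and -0.24, with *Myc* at 0.22 (SE 0.18) and -0.11 (SE 0.11). The cyclophilins *Ppia* and *Ppib*, known ligands of basigin, differed by 0.24 (SE 0.11) and 0.10 (SE 0.12) and by 0.15 (SE 0.11) and 0.01 (SE 0.11). None of the genes given with values in this paragraph passed the test in either comparison, while *Slc7a8*, *Slc43a2* and *Hcar2* of the same lists are given above. The limma adjusted p of *Pcx*, *Mpc1* and *Mpc2* was also over 0.05 throughout.

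Other carriers and chaperones were present beside the members. *Emb*, encoding embigin, the chaperone known to pair with MCT2, had 1396 to 6426 reads per library and averaged 39.4 RPKM, with log2 differences of -0.60 (SE 0.48) and -0.64 (SE 0.22, limma adjusted p = 0.102) in de novo and stably expanded over pre-malignant libraries. *Mpc1* and *Mpc2*, the mitochondrial pyruvate carrier, had 167 to 338 and 197 to 416 reads, and *Mpc1* was higher by 0.63 (SE 0.17, adjusted p = 0.372) and 0.50 (SE 0.18, adjusted p = 0.116). Among the other 9 SLC16 genes *Slc16a13* alone was tested, with 93 to 260 reads per library and log2 differences of 0.57 (SE 0.38) and -0.12 (SE 0.24). The remaining 8 had at most 38 reads in any library, and the sodium-coupled carriers *Slc5a8* and *Slc5a12* at most 5.

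Genes near the members on the chromosome were read off the same fits. Within 500 kb, 18 neighbours of *Slc16a1*, 39 of *Slc16a3*, 8 of *Slc16a6*, 13 of *Slc16a10* and 35 of *Bsg* were tested in any comparison. Between stably expanded and pre-malignant libraries *Arsg* near *Slc16a6* (lower, 1 of 8 tested), *Mfsd4b5* near *Slc16a10* (lower, 1 of 12) and *Prss57* near *Bsg* (higher, 1 of 35) were called. None of the 17 neighbours of *Slc16a1* and 39 of *Slc16a3* tested there was called, where 2.75% of all tested genes were. The other comparisons called no neighbour, beside 0 and 0.00727% of all tested genes. These genes were picked for naming with their values in view. The median log2 difference of the neighbours of *Slc16a1* was -0.25 and -0.18 in the comparisons with the pre-malignant group, below 0 where *Slc16a1* itself was above, and that of the neighbours of *Slc16a3* was 0.07 and 0.05.

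Genes whose pattern over the 9 libraries was most like a member were ranked by Pearson correlation of log2(CPM + 1) among 13081 genes, as a description over libraries that share group and depth. *Slc16a1* was most like *Tomm22* (r = 0.957), *Mllt1* (0.942) and *Lyl1* (0.927), and *Slc16a3* most like *Sptan1* (0.972), *Lbr* (0.965) and *Tipin* (0.951). *Slc16a6* was most like *Slc37a2* (0.985), with 5.07 to 6.37 CPM in pre-malignant and 0.963 to 2.22 CPM in stably expanded libraries, and like *Cspg5* (0.967). *Slc16a7* was most like *B4galt7* (0.939), *1110051M20Rik* (0.923) and *Spef1* (0.920), *Slc16a10* like *Toe1* (0.958), *2610318N02Rik* (0.958) and *Tedc1* (0.947), and *Bsg* like *Rnaseh2c* (0.971), *Txndc15* (0.966) and *Neu3* (0.963).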

How the data were processed

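RNA-Seq libraries were made from 9 sorted samples with a stranded low-input total RNA kit. According to the submitters' processing notes and the study's methods, the authors trimmed reads with Trim Galore 0.6.4, aligned them to GRCm38.p6 with STAR 2.6.1d, counted them on GENCODE genes with featureCounts 1.6.4 and normalized them with DESeq2. The authors deposited 3 tables, 1 per pair of groups, whose values per library are normalized counts, a signal made by dividing counts by size factors over 6 libraries. Columns with the authors' log2 fold changes, standard errors, test statistics and p-values were not used. Dividing by the smallest step returned whole reads within 0.05 reads in 99.99% or more of the values above 0, and both tables with a given library returned equal reads for it. CPM were calculated from these reads and their sum over genes, and RPKM from the deposited exon length. Reads amplified by PCR are not independent molecules.

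The main test was limma 3.58.1 with an empirical Bayes trend (R 4.3.3) on log2(normalized count + 1), two-sided, restricted to genes whose normalized counts averaged at least 10 over the 6 libraries of a comparison, with Benjamini-Hochberg adjustment over all genes tested. Calls required 2-fold and an adjusted p under 0.05. No label says that samples of a group came from separate experiments, and all pre-malignant samples came from 1 mouse and all stably expanded samples from 1 clone, so p-values measure only the spread between these samples. Alternatives were pseudocounts of 0.1 and 5, no filter or a minimum of 50, quantile normalization, edgeR 4.0.16 with TMM normalization and DESeq2 1.42.0 on the recovered reads, 1 fit of all 9 libraries, and leaving out each library in turn. Other values were computed in Python 3.11.15 (scipy 1.17.1, pandas 2.3.3, numpy 2.4.6), and figures were drawn with matplotlib 3.10.9.

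The 6 members, the 9 pathway lists and the 6 marker lists were chosen with earlier results of these data known. Genes named are the members; in each pathway list the called genes, the gene with the highest mean CPM and the tested gene with the largest absolute log2 difference in each comparison; the 3 genes most like each member, among genes with a mean CPM of at least 1; and *Kit*, *Ptprc*, *Itgam*, *Hoxa9* and *Meis1*. 1 marker gene, 1 of the genes like a member and 1 feature of the model are not reported here. Where a symbol had several gene IDs, the ID with the most reads was used. Promoter sequences are those of RefSeq for GRCm38.p6, which held 3 of the 6 members.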

Additional observations from a re-analysis of the deposited data

How the results depend on the processing

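Between de novo expanded and pre-malignant libraries the number of genes called was 0, against 5 with no filter on low values, 42 with DESeq2, 5 in 1 fit of all 9 libraries and 0 to 215 when 1 library was left out (215 without de novo expanded library 3). The number of members called was 0, against 1 with DESeq2 and 0 to 1 without 1 library, the 1 being *Slc16a3* without de novo expanded library 3. Between stably expanded and pre-malignant libraries 384 genes were called, against 9 in the fit of all 9 libraries and 205 to 458 without 1 library. Members called numbered 2, against 1 at a minimum of 50, where *Slc16a7* was not tested, 0 in the fit of all 9 libraries and 1 to 2 without 1 library, and genes of the pathway lists 2, against 1 at a minimum of 50, 0 in the fit of all 9 libraries and 1 to 2 without 1 library. Between the leukemic groups 1 gene was called, against 2 with no filter, 29 with DESeq2, 2 in the fit of all 9 libraries and 0 to 511 without 1 library (511 without de novo expanded library 3). Members called there numbered 0, against 1 with DESeq2, and pathway genes 0, against 0 to 3 without 1 library, the 3 without de novo expanded library 3 being *Car12*, *Slc16a13* and *Slc7a8*. The causes were not tested. Of 250 log2 differences of members under these alternatives, 246 lay within 1 SD of the value given, and the 4 others were those of *Slc16a7* for the stably expanded group with edgeR and DESeq2. In 242 the sign was kept, and the 8 others were values of *Slc16a6*, *Slc16a7*, *Slc16a10* and *Bsg* that were near 0 or, for *Slc16a7*, between the groups of 3 clones. No paired analysis was possible because no label links a column to a clone or mouse within its group. Depth limits *Slc16a7*, for which 3 reads, the limit for a count of 0, are 0.193 to 0.289 CPM.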

Other observations

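Among SLC16 genes below the filter, *Slc16a11* had 38 reads in de novo expanded library 2 and at most 2 reads in each of the other 8 libraries, and *Slc16a4* had 16 reads in pre-malignant library 2 and at most 6 in the others. Odorant and pheromone receptor genes (names starting with Olfr or Vmn) together took 0.00833 to 0.0186% in pre-malignant, 0.00385 to 0.0121% in de novo expanded and 0.00219 to 0.00813% of all reads in stably expanded libraries.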
